A study of Mus musculus with 8 samples.

Results

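The solute carriers are membrane proteins that move amino acids, sugars, vitamins, metals, ions, fatty acids and drugs across the plasma membrane and the membranes of organelles. Most are driven by ion gradients or by exchange of one solute for another rather than by ATP hydrolysis. In the liver they take nutrients and waste products out of portal blood, release glucose, ketone bodies and metals, and load bile and intracellular vesicles. Described here are 147 solute carrier genes outside the mitochondrial Slc25 family, chosen by their mean level over 8 mouse liver RNA-seq libraries. Each is protein coding, has a name of the form Slc1a2 or Slco1b2, and had a mean of at least 1 FPKM (fragments per kilobase of transcript, scaled to the number of mapped fragments). They stand among 43629 entries with values and among 299 genes with such names, of which 145 lay under the limit and 7 were set aside by the selection rule. Names such as Slc35b1, with another letter before the last number, are outside the selection. Of the 145 genes under the limit, 13 were listed at 0 in all libraries. The members just inside the limit were Slc41a3, Slc5a3 and Slc38a9, with means of 1.02, 1.16 and 1.22 FPKM. Just outside were Slc22a4 at 0.921, Slc18a2 at 0.878 and Slc37a2 at 0.875 FPKM. Slc41a3 and Slc5a3 had a mean under 1 FPKM in one group and passed through the other.

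The livers came from male C57BL/6 mice 7 to 8 weeks old, 1 library per mouse. Each mouse was injected in the tail vein with 5 µg of an antagomiR, a chemically modified antisense oligonucleotide against a microRNA. In 4 mice this was antagomiR-122, directed at miR-122, an abundant microRNA of hepatocytes, and in the other 4 it was antagomiR-control. All 8 mice were then given CL316243 at 1 mg/kg under the skin, 48 h after the antagomiR, and were killed after another 2 h. CL316243 acts on β3-adrenergic receptors of fat cells, which then release fatty acids. Both groups therefore carry the CL316243 treatment, and livers without it were not analysed here. The comparison asks which transporter transcripts differ with antagomiR-122 under that treatment. The level of miR-122 itself was not analysed here.

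Relative sequencing depth, estimated from the steps between low FPKM values, was 2.37 for antagomiR-122 replicate 4 and 0.890 to 1.13 for the other libraries. On the leading principal axis of the 11131 tested genes this deep library scored 38.2, against -13.6 to 0.81 in the rest. Over the solute carriers alone its score was 1.47, within the range of -2.75 to 2.18. Of 7 hepatocyte marker genes 6 reached 1 FPKM, with a summed level of 11093 to 13441 FPKM in control mice and 11299 to 13194 FPKM in antagomiR-122 mice. The seventh, Alb, was listed at 0 in all 8 libraries, so a listed 0 in this table does not show absence. No solute carrier described here was at 0 in any library. Of 7 markers of kidney or other abdominal tissue, 6 had means under 0.1 FPKM over all libraries, and Cela1 had 7.95 FPKM. Among the 6, Slc34a1 had 0.0288 FPKM in control mice and 0.126 FPKM in antagomiR-122 mice. Umod had 0.0266 FPKM in control mice and 0.115 FPKM in antagomiR-122 mice. Both means came mostly from antagomiR-122 replicates 2 and 3, with 0.118 and 0.338 FPKM for Slc34a1 and 0.169 and 0.251 FPKM for Umod. In antagomiR-122 replicates 1 and 4 neither gene exceeded 0.0388 FPKM. None of 6 T and B cell markers reached 1 FPKM.

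The promoters of 4 carriers are shown first, picked by the smallest unadjusted limma p among those with a RefSeq entry. None of the 4 passed the adjusted threshold. They are Slc34a2, Slc5a6, Slc38a2 and Slc37a1. Each window holds the 250 bases upstream of a RefSeq transcription start on GRCm38.p6, written 5′ to 3′ on the gene's strand. Slc34a2 lies on the plus strand at chr5:53049103-53049352, inside the span chr5:53038082-53071664 that the deposited table gives the gene. Slc5a6, on the minus strand, has one window at chr5:31048563-31048812 and another at chr5:31048080-31048329. Slc38a2 is at chr15:96699729-96699978 on the minus strand, and Slc37a1 at chr17:31295974-31296223 on the plus strand. Both Slc5a6 windows also lie inside the gene's deposited span, chr5:31036036-31048924. The Slc37a1 window likewise lies inside chr17:31295483-31350696. Only the Slc38a2 window lies outside its gene's span, chr15:96687394-96699698. Capitals mark matches, on either strand, to the GC box GGGCGG and the CCAAT box CCAAT.
Slc34a2 promoter: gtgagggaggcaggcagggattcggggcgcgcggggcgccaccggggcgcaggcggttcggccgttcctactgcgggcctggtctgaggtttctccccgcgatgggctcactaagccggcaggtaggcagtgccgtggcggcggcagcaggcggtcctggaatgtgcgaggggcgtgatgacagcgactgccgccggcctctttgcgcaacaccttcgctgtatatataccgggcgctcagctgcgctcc
Slc5a6 promoter, first window: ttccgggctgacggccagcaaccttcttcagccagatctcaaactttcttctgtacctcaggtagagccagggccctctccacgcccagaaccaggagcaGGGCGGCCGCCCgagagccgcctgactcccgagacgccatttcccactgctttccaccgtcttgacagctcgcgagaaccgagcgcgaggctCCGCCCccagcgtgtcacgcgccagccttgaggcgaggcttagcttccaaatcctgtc
Slc5a6 promoter, second window: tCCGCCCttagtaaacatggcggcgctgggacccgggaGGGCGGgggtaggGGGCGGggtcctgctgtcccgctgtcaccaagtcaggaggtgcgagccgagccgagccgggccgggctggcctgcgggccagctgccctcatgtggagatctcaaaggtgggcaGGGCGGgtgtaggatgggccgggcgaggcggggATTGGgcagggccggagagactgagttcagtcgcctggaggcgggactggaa
Slc38a2 promoter: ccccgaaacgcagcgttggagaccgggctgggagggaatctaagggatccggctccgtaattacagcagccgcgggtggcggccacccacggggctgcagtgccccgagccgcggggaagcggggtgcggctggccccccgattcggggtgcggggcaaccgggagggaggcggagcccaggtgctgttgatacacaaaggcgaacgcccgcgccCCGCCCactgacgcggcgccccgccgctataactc
Slc37a1 promoter: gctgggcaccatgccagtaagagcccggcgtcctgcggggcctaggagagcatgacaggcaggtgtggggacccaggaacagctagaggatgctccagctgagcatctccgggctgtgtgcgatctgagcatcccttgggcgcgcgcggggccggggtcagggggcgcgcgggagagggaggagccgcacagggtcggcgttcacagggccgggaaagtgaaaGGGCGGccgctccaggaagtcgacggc

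The Slc34a2 window held none of 7 motifs searched on both strands. These were the E-box CACGTG, the D-box TTATGNAA, the cAMP response element TGACGTCA, the amino acid response element TGATGNAA, the GC box, the CCAAT box and the TATA box TATAAA. The first Slc5a6 window held 3 GC boxes, at 150, 144 and 58 bases before the start, the first 2 of them directly adjacent. In the second Slc5a6 window 4 GC boxes and 1 CCAAT box were found. Slc38a2 and Slc37a1 each had 1 GC box, at 35 and 27 bases before the start. No match shared bases with a match to another motif. Over 149 windows of the 108 carriers with an entry, 50.3% held a GC box, against 32.7% of all 32851 windows. An E-box was found in 11.4% of the carriers' windows and in 6.02% of all windows. The amino acid response element was in 4.70% and 3.45%, the D-box in 4.03% and 3.07%, and the cAMP response element in 0.671% and 1.55%. The CCAAT box was in 27.5% and 33.8%, and the TATA box in 8.05% and 12.4%. All windows include genes of any level in liver, while the carriers were chosen at 1 FPKM or more, so the sets are unlike. The shares describe letters in the windows and were not tested.

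FPKM values are per length of transcript, so levels can be set side by side between genes. The 147 carriers spanned from 1.02 to 574 FPKM, with a median of 9.80 FPKM. There were 7 carriers above 100 FPKM, 66 between 10 and 100, and 74 under 10, of which 14 were under 2 FPKM. Their summed level was 4521 ± 197 FPKM in control mice and 4707 ± 90.0 FPKM in antagomiR-122 mice (SD, n = 4 each), and 5 genes held 44.5% of it. The first of these, Slc27a5, is the bile acyl-CoA synthetase and fatty acid transport protein of hepatocytes. It is followed by Slc38a3, which carries glutamine across the hepatocyte membrane, at 526 FPKM. Slco1b2, an uptake transporter for bilirubin and drugs, had 448 FPKM, and Slc38a4, an amino acid transporter, had 345 FPKM. Slco1a1, an organic anion transporter, and Slc39a14, which takes up zinc, manganese and iron, had 145 and 121 FPKM.

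**Figure D1:**
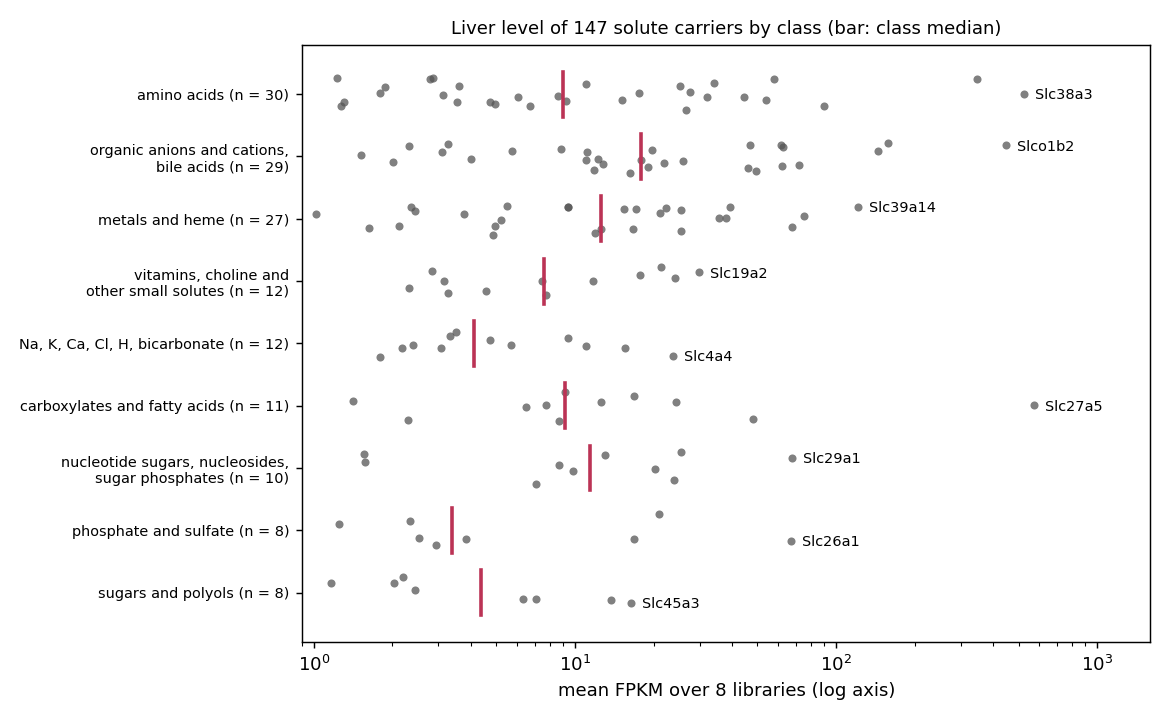
Mean FPKM over 8 libraries (x axis, log scale) of each of 147 solute carriers, 1 point per gene, by transported substrate (y axis). The bar is the class median and the highest gene of each class is named. Among the genes shown, the 7 above 100 FPKM fall in 4 of the 9 classes, while the sugar class stays under 20 FPKM. Genes set aside by the selection rule are not drawn.

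By substrate, 30 carriers of amino acids and peptides held 29.7% of the summed level and 29 carriers of organic anions, organic cations and bile acids held 29.5%. The 11 carriers of carboxylates and fatty acids held 15.4%, most of it Slc27a5. Metals and heme, with 27 genes, held 13.0%. The other classes were each under 4%: nucleotide sugars, nucleosides and sugar phosphates with 10 genes at 3.89%, vitamins, choline and other small solutes with 12 at 2.95%, phosphate and sulfate with 8 at 2.55%. Inorganic ions and bicarbonate, 12 genes, held 1.87%, and sugars and polyols, 8 genes, held 1.11%. These are shares of the described carriers only. They leave out the 7 genes set aside by the selection rule, so they do not describe all carriers of liver. The class sums of the groups overlapped in their ranges in all 9 classes. The amino acid class had the widest gap in summed level, with 1305 ± 157 FPKM in controls and 1435 ± 121.7 FPKM with antagomiR-122 (SD, n = 4 mice each).

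None of the 147 carriers passed an adjusted p of 0.05 in limma's test over all tested genes, and the smallest adjusted p was 0.291. No gene passed among all 11131 tested, a share of 0.0%. At an unadjusted limma p under 0.05 there were 5 carriers higher with antagomiR-122, or 3.40%, beside 3.76% of all tested genes. Lower were 11, or 7.48%, beside 3.67% of all tested genes. A second count, with no model of the spread, takes genes whose 4 values in one group all lie above the 4 of the other. It found 4 carriers higher with antagomiR-122, or 2.72%, beside 2.38% of all tested genes, and 8 lower, or 5.44%, beside 2.14%. The higher counts thus lay near the share over all genes, and the lower counts lay above it. These p-values measure the spread between these 8 mice only.

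The counts moved with single libraries. Without antagomiR-122 replicate 2 there were 26 carriers with an unadjusted limma p under 0.05, or 17.7% beside 8.73% of all tested genes. In the same setting 21 had separate groups, or 14.3% beside 9.13%. Without antagomiR-122 replicate 4, the deep library, 20 carriers had separate groups, or 13.6% beside 8.26%. None passed the adjusted threshold in either case. Without replicate 4 the log2 fold changes were -1.11 for Slc34a2, 0.94 for Slc5a6, -0.63 for Slc38a2, -0.58 for Slc16a6 and -0.44 for Slc37a1, the 5 largest with all libraries.

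The balance of directions was even. Of the 147 carriers 75 had a log2 fold change above 0 and 72 below, with a median of 0.0019 beside 0.0104 over all tested genes. The median size of the log2 fold change was 0.109 for the carriers and 0.0925 for all tested genes. The 95% interval of the difference lay within ±1 on the log2(FPKM + 1) scale for 141 carriers and within ±0.5 for 103. This scale understates differences of genes with few FPKM. Only 5 carriers had a log2 fold change beyond 0.5 in size, and these were Slc34a2, Slc5a6, Slc38a2, Slc16a6 and Slc37a1.

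**Figure D2:**
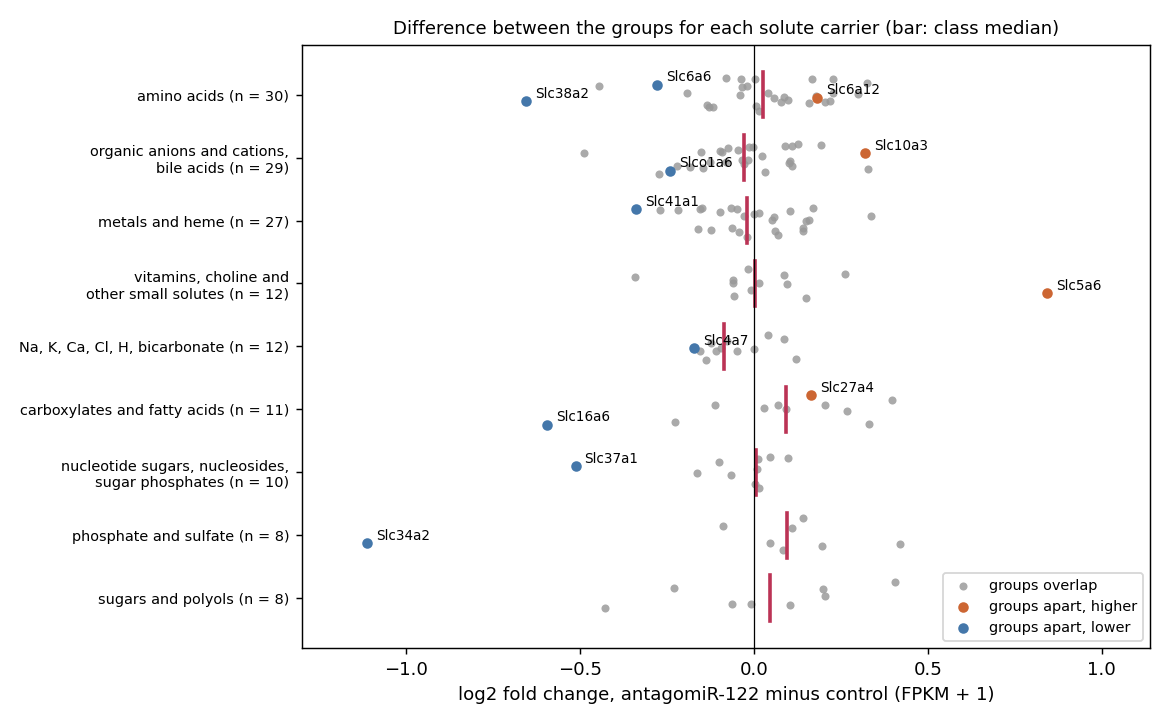
Log2 fold change, antagomiR-122 minus control on the log2(FPKM + 1) scale (x axis), of each of 147 solute carriers, 1 point per gene, by transported substrate (y axis). Bars are class medians, and coloured points are genes whose groups do not overlap. Slc34a2 at -1.11 and Slc5a6 at 0.84 lie farthest out, and the class medians lie between -0.09 and 0.10.

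**Figure D3:**
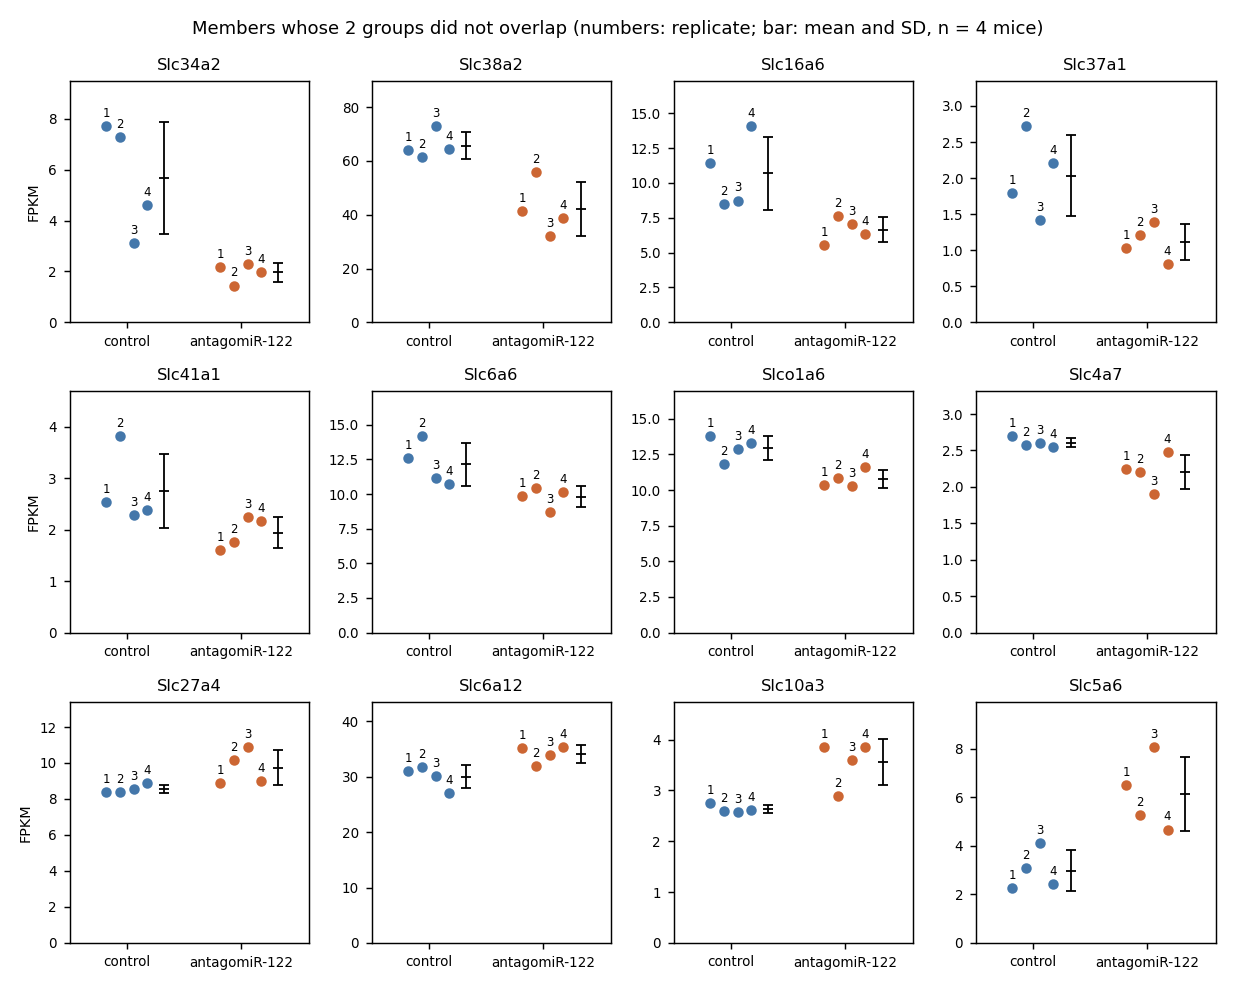
FPKM of the 12 carriers whose groups do not overlap (y axis, from 0), 1 point per mouse numbered by replicate, with the mean and SD of each group of 4. The 8 lower and 4 higher genes are shown. Slc34a2 has the largest ratio of means, and Slc6a12 and Slc27a4 have the smallest.

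In the classes below, pairs of means are given for control mice first and antagomiR-122 mice second, each ± SD over 4 mice. Phosphate and sulfate carriers numbered 8, of which 6 had a positive and 2 a negative log2 fold change, with a median of 0.10. Slc34a2 encodes a sodium-phosphate cotransporter best known from intestine and lung. It stood at 7.71, 7.27, 3.12 and 4.60 FPKM in control replicates 1 to 4 and at 2.19, 1.45, 2.29 and 1.96 FPKM in antagomiR-122 replicates 1 to 4. All antagomiR-122 values lay under the lowest control, which was replicate 3, and the controls spread far more widely. The means were 5.68 ± 2.19 and 1.97 ± 0.376 FPKM (SD, n = 4 each), 2.88-fold lower with antagomiR-122. On the log2(FPKM + 1) scale the difference was -1.11 ± 0.23 (SE; limma adjusted p = 0.291). The authors' deposited table called it significant with q = 0.00526, from Cuffdiff's own model of the spread. Across 15 alternative settings the log2 fold change ran from -1.41 to -0.96.

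The summed level of bile duct epithelium markers was also lower with antagomiR-122. Of 6 such markers 2 reached 1 FPKM and none was at 0 in all libraries. Their summed level was 30.5146 to 38.7 FPKM in control mice and 26.0 to 30.5107 FPKM in antagomiR-122 mice, so the ranges touched without overlap. Spp1, which macrophages also make, had 31.5 ± 3.38 FPKM in controls and 25.8 ± 1.35 FPKM with antagomiR-122, with separate groups (limma adjusted p = 0.536). Spp1 made up most of the sum. Sox9 had 2.01 ± 0.711 and 1.31 ± 0.390 FPKM with overlap, and the authors' deposited table called it significant with q = 0.0343. Epcam had 0.651 ± 0.0599 and 0.502 ± 0.0999 FPKM. The keratins leaned the other way, Krt19 with 0.478 ± 0.111 and 0.687 ± 0.493 FPKM and Krt7 with 0.318 ± 0.112 and 0.573 ± 0.481 FPKM. Cftr had a mean of 0.0668 FPKM. The part of these cells in the Slc34a2 difference, or in those of the other carriers below, was not tested. Summed markers of endothelial, Kupffer, stellate and red blood cells overlapped between the groups, and those of neutrophils were 8.77 to 25.8 FPKM in controls and 5.78 to 12.6 FPKM with antagomiR-122. Among the stellate cell markers Lrat alone had separate groups, with 4.94 ± 0.733 and 3.57 ± 0.377 FPKM. In bulk liver, fewer cells of a type and less RNA per cell cannot be told apart.

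The other members of the class did not separate the groups. Slc26a1, the hepatic sulfate and oxalate exchanger, was highest in level at 62.2 ± 6.33 and 72.0 ± 13.2 FPKM. Slc20a1, a housekeeping phosphate transporter, had 10.3, 15.8, 16.5 and 13.9 FPKM in controls and 20.1, 13.0, 19.5 and 25.2 FPKM with antagomiR-122. Only antagomiR-122 replicate 2 fell among the controls there, and the log2 fold change was 0.42 ± 0.20 (SE; limma adjusted p = 0.673). Its paralog Slc20a2 stood at 19.9 ± 2.06 and 22.2 ± 3.51 FPKM.

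Among 30 carriers of amino acids and peptides 18 had a positive and 12 a negative log2 fold change, with a median of 0.03. Slc38a2, a sodium-coupled transporter of small neutral amino acids that cells induce when amino acids run short, was lower with antagomiR-122. It had 63.9, 61.5, 73.0 and 64.3 FPKM in controls and 41.4, 56.1, 32.1 and 38.8 FPKM with antagomiR-122. The controls were tightly grouped, and antagomiR-122 replicate 2 came closest to them. Means were 65.7 ± 5.01 and 42.1 ± 10.1 FPKM (SD, n = 4 each), 1.56-fold lower. The log2 fold change was -0.66 ± 0.15 (SE; limma adjusted p = 0.304), and the authors' deposited table gave q = 0.00526. Without antagomiR-122 replicate 2 the log2 fold change was -0.80 with a limma adjusted p of 0.119, the smallest of any carrier in any alternative. Atf4, a transcription factor known to act on amino acid transporter genes, had 40.2 ± 2.98 and 38.2 ± 6.09 FPKM.

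The related Slc38a3 and Slc38a4 had means in the opposite direction. Slc38a3 had 390.4, 581, 472 and 442 FPKM in controls and 526, 482, 629 and 683 FPKM with antagomiR-122, with overlap through control replicate 2. Its log2 fold change was 0.30 ± 0.14 (SE; limma adjusted p = 0.688). For Slc38a4 the means were 326 ± 52.9 and 364 ± 34.6 FPKM, within the spread.

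Slc6a6, the taurine transporter, had 12.6, 14.2, 11.2 and 10.7 FPKM in controls and 9.89, 10.5, 8.74 and 10.1 FPKM with antagomiR-122. The groups nearly met between control replicate 4 and antagomiR-122 replicate 2, and the log2 fold change was -0.28 ± 0.10 (SE; limma adjusted p = 0.594). Slc6a12, which carries betaine and GABA, leaned the other way with 31.1, 31.7, 30.2 and 27.1 FPKM in controls and 35.2, 32.0, 33.9 and 35.4 FPKM with antagomiR-122. Its log2 fold change was 0.18 ± 0.08 (SE; limma adjusted p = 0.648), and its groups overlapped once libraries were rescaled by median ratios or by quantiles. Its neighbour Slc6a13, another GABA and taurine carrier, stood higher in level at 93.5 ± 5.56 and 85.9 ± 10.8 FPKM.

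Slc3a1, the partner chain of the cystine and dibasic amino acid transporter, had 29.3, 35.4, 23.7 and 29.2 FPKM in controls and 22.2, 21.8, 16.9 and 24.2 FPKM with antagomiR-122. Control replicate 3 fell below antagomiR-122 replicate 4, and the log2 fold change was -0.45 ± 0.14 (SE; limma adjusted p = 0.489). Its annotated exons share 601 bases, or 26.5% of their length, with Prepl on the opposite strand. Prepl was itself lower, with 15.2 ± 1.25 and 12.2 ± 1.10 FPKM and separate groups. Whether counting used strand is not given in the sources used here, so reads of these neighbours cannot be told apart.

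The remaining amino acid carriers overlapped between groups. Slc6a9, the glycine transporter, had 30.2 ± 6.29 and 37.7 ± 4.95 FPKM. Its exons share 1429 bases, 27.8% of their length, with Ccdc24 on the opposite strand, which had 7.31 ± 1.54 and 10.5 ± 3.02 FPKM. The cationic amino acid carrier Slc7a2 had 53.4 ± 16.6 and 62.2 ± 16.4 FPKM, and the glutamate carrier Slc1a2 had 43.3 ± 9.08 and 45.7 ± 7.72 FPKM. Slc3a2, the shared heavy chain of several exchangers, was at 14.6 ± 0.818 and 15.8 ± 2.88 FPKM. Of its light chains, Slc7a7 had means of 2.79 FPKM in both groups, and Slc7a8 had 1.91 ± 0.313 and 1.85 ± 0.379 FPKM.

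Carriers of vitamins, choline and other small solutes were split evenly, 6 positive and 6 negative, with a median of 0.00. Slc5a6, the sodium-dependent carrier of biotin, pantothenate and lipoate, had the largest positive log2 fold change of all 147. Its values were 2.27, 3.09, 4.13 and 2.43 FPKM in controls and 6.52, 5.26, 8.09 and 4.67 FPKM with antagomiR-122. The highest control, replicate 3, lay just under the lowest antagomiR-122 mouse, replicate 4. Means were 2.98 ± 0.846 and 6.14 ± 1.51 FPKM (SD, n = 4 each), a 2.06-fold ratio. The log2 fold change was 0.84 ± 0.18 (SE; limma adjusted p = 0.291), and the authors' deposited table did not call it, with q = 0.389.

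The first and second Slc5a6 promoter windows printed above lie close together, and the gene's exons share 396 bases, 9.92% of their length, with Atraid on the opposite strand. Atraid had 57.8 ± 4.62 and 61.4 ± 6.64 FPKM and a log2 fold change of 0.08. It was over 10 times as abundant as Slc5a6, and reads from the shared bases cannot be told apart without strand. Slc44a1, a choline transporter, had 19.1, 22.0, 20.8 and 17.9 FPKM in controls and 15.6, 13.5, 14.5 and 18.7 FPKM with antagomiR-122. AntagomiR-122 replicate 4 fell among the controls, and the log2 fold change was -0.34 ± 0.11 (SE; limma adjusted p = 0.504). The thiamine carrier Slc19a2 was highest in the class, with 28.5 ± 3.17 and 31.0 ± 7.88 FPKM. Slc23a1, for ascorbate, and Slc46a1, for folate, were nearly level between groups at 24.6 ± 2.78 and 23.6 ± 3.95 FPKM and at 21.5 ± 1.68 and 21.2 ± 2.18 FPKM. Slc52a2, for riboflavin, had 2.50 ± 0.613 and 3.16 ± 0.271 FPKM.

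Of 11 carboxylate and fatty acid carriers 8 had a positive and 3 a negative log2 fold change, with a median of 0.09. Slc16a6, a monocarboxylate transporter known in zebrafish for the export of ketone bodies from liver, was lower with antagomiR-122. It had 11.4, 8.47, 8.74 and 14.1 FPKM in controls and 5.53, 7.61, 7.04 and 6.36 FPKM with antagomiR-122. All 4 antagomiR-122 mice lay under the lowest control, and control replicate 4 was the highest. Means were 10.7 ± 2.63 and 6.63 ± 0.897 FPKM (SD, n = 4 each), 1.61-fold lower, with a log2 fold change of -0.59 ± 0.16 (SE; limma adjusted p = 0.410). Its exons share 1052 bases, 21.5% of their length, with Amz2 on the opposite strand, which had 7.26 ± 1.67 and 6.46 ± 0.277 FPKM.

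Slc16a1, the lactate and ketone body transporter MCT1, had 49.6, 50.5, 47.2 and 61.1 FPKM in controls and 43.1, 51.0, 41.4 and 41.7 FPKM with antagomiR-122. AntagomiR-122 replicate 2 lay among the controls, and the log2 fold change was -0.23 ± 0.10 (SE; limma adjusted p = 0.670). In the other direction, Slc27a4, a fatty acid transport protein with acyl-CoA synthetase activity, had 8.400, 8.405, 8.549 and 8.898 FPKM in controls and 8.900, 10.19, 10.91 and 8.982 FPKM with antagomiR-122. Control replicate 4 and antagomiR-122 replicate 1 were all but equal, and the log2 fold change was 0.16 ± 0.08 (SE; limma adjusted p = 0.726). The abundant Slc27a5 had 555 ± 25.9 and 592 ± 38.7 FPKM, and the 95% interval of its log2 fold change was -0.08 to 0.26. Slc16a13, whose substrate is not settled, had 2.22, 1.70, 1.82 and 1.87 FPKM in controls and 1.82, 3.56, 2.61 and 2.79 FPKM with antagomiR-122, with antagomiR-122 replicate 1 among the controls. The log2 fold change was 0.33 ± 0.14 (SE; limma adjusted p = 0.659).

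Of 10 carriers of nucleotide sugars, nucleosides and sugar phosphates 6 had a positive and 4 a negative log2 fold change, with a median of 0.01. Slc37a1 exchanges glucose 6-phosphate for phosphate across the endoplasmic reticulum membrane. It had 1.79, 2.72, 1.42 and 2.20 FPKM in controls and 1.03, 1.21, 1.39 and 0.803 FPKM with antagomiR-122, and the groups met between control replicate 3 and antagomiR-122 replicate 3 without overlap. Means were 2.03 ± 0.559 and 1.11 ± 0.252 FPKM (SD, n = 4 each), 1.83-fold lower. The log2 fold change was -0.51 ± 0.15 (SE; limma adjusted p = 0.452), and -0.81 with a pseudocount of 0.1. The authors' deposited table gave q = 0.00526. Slc37a3 of the same family stood at 7.04 ± 0.813 and 7.11 ± 0.736 FPKM. Slc29a1, the main equilibrative nucleoside transporter, had 69.7 ± 8.66 and 66.3 ± 17.8 FPKM, and its lysosomal relative Slc29a3 had 1.45 ± 0.193 and 1.65 ± 0.456 FPKM. The Golgi carriers Slc35a1 for CMP-sialic acid, Slc35a2 for UDP-galactose and Slc35a3 for UDP-N-acetylglucosamine had log2 fold changes of 0.01, 0.01 and 0.00.

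Metal and heme carriers numbered 27, with 13 positive and 14 negative log2 fold changes and a median of -0.02. Slc41a1, a magnesium transporter, had 2.53, 3.81, 2.28 and 2.38 FPKM in controls and 1.61, 1.76, 2.24 and 2.17 FPKM with antagomiR-122. The groups nearly met, and control replicate 2 stood far above the other controls. Its log2 fold change was -0.34 ± 0.14 (SE; limma adjusted p = 0.641), and -0.21 without that mouse. Slc41a3, of the same family, leaned the other way at 0.664, 0.620, 0.949 and 0.875 and 1.35, 0.876, 1.79 and 1.04 FPKM with overlap (log2 fold change 0.34 ± 0.14, SE; limma adjusted p = 0.648). This gene passed the level limit only through the antagomiR-122 group.

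Slc39a14 led the metal carriers in level with 128 ± 15.9 and 114 ± 11.0 FPKM. The copper importer Slc31a1 had 73.6 ± 2.17 and 76.7 ± 4.15 FPKM, and the iron exporter ferroportin, Slc40a1, had 71.6 ± 11.0 and 64.4 ± 14.4 FPKM. Slc11a2, the divalent metal transporter that brings iron out of endosomes, had 17.0 ± 3.31 and 13.9 ± 2.61 FPKM. Slc30a10, which exports manganese, had 24.0 ± 1.32 and 20.7 ± 3.90 FPKM. All of these overlapped between the groups. The Slc30 and Slc39 families, mostly zinc carriers, had log2 fold changes from -0.22 to 0.16, and none separated the groups. Mtf1, the zinc-sensing transcription factor, was level at 5.06 ± 0.420 and 5.03 ± 0.403 FPKM.

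The 29 carriers of organic anions, organic cations and bile acids had 11 positive and 18 negative log2 fold changes and a median of -0.03. Slco1a6, a rodent member of the organic anion transporting polypeptides, had 13.8, 11.8, 12.9 and 13.3 FPKM in controls and 10.4, 10.9, 10.3 and 11.6 FPKM with antagomiR-122. The groups were narrowly separate with little spread in either, and the log2 fold change was -0.24 ± 0.08 (SE; limma adjusted p = 0.526). Slc10a3, a relative of the bile acid carriers with no settled substrate, had 2.76, 2.59, 2.58 and 2.61 FPKM in controls and 3.84, 2.89, 3.60 and 3.86 FPKM with antagomiR-122. Every control lay within a narrow band under the antagomiR-122 values, and the log2 fold change was 0.32 ± 0.10 (SE; limma adjusted p = 0.476). Its exons share 258 bases, 12.8% of their length, with Ubl4a on the same strand, at 12.9 ± 1.48 and 15.2 ± 2.00 FPKM. The split of reads between this pair is uncertain.

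The authors' deposited table called 4 of the 147 carriers significant, or 2.72%, beside 1.42% of the 13259 genes it tested. All 4 were lower with antagomiR-122, and the first 3 were Slc34a2, Slc38a2 and Slc37a1. Among the 11131 genes tested here, the authors' calls leaned lower too, with 105 lower and 64 higher. The fourth, Slc22a7, carries organic anions and cyclic nucleotides and had q = 0.0136. It had 14.8, 12.9, 6.27 and 18.5 FPKM in controls and 5.72, 13.6, 11.3 and 5.60 FPKM with antagomiR-122, so control replicate 3 lay with the low antagomiR-122 mice and antagomiR-122 replicates 2 and 3 with the controls. Its log2 fold change was -0.49 ± 0.37 (SE; limma adjusted p = 0.800), and the 95% interval ran from -1.33 to 0.36. Single libraries moved it, to -0.78 without control replicate 3 and to -0.31 without control replicate 4. Without antagomiR-122 replicate 1 or 4 it was -0.33 and -0.32.

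Apart from Slco1a6 and Slc10a3, the carriers of organic anions, organic cations and bile acids overlapped between the groups. Slco1b2 had 435, 442, 459.9 and 402 FPKM in controls and 463, 465, 479.9 and 442 FPKM with antagomiR-122, which overlapped, and the 95% interval of its log2 fold change was -0.07 to 0.25. Slco2b1, another organic anion transporter, had 59.3 ± 10.3 and 64.1 ± 12.2 FPKM. Slc47a1, which exports organic cations into bile, had 46.6 ± 3.39 and 46.9 ± 9.56 FPKM. The carnitine transporter Slc22a5 had 40.3 ± 9.21 and 51.6 ± 15.1 FPKM, with overlap. Slc10a2, the apical bile acid transporter of ileum and bile duct epithelium, had 14.0 ± 3.99 and 11.6 ± 1.90 FPKM. The 95% intervals of the log2 fold changes were wide, -0.20 to 0.85 for Slc22a5 and -0.69 to 0.25 for Slc10a2.

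Carriers of sodium, potassium, chloride, protons and bicarbonate had 3 positive and 9 negative log2 fold changes among 12, with a median of -0.09. The sodium bicarbonate cotransporter Slc4a7 was the one with separate groups, at 2.69, 2.58, 2.60 and 2.55 FPKM in controls and 2.24, 2.20, 1.90 and 2.47 FPKM with antagomiR-122. Controls were nearly identical, antagomiR-122 replicate 4 came closest to them, and the log2 fold change was -0.17 ± 0.09 (SE; limma adjusted p = 0.718). Slc4a4, the electrogenic bicarbonate cotransporter, was the most abundant with 22.8 ± 3.80 and 24.8 ± 2.79 FPKM. The chloride carriers Slc12a7 and Slc12a2 had log2 fold changes of -0.05 and -0.14. The sodium-proton exchanger Slc9a8 was at -0.08.

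Sugar and polyol carriers were 8, with 4 positive and 4 negative log2 fold changes and a median of 0.05, and none had separate groups. Slc45a3, a proton-coupled sugar transporter, had 14.8, 17.3, 22.1 and 21.8 FPKM in controls and 13.8, 15.6, 10.8 and 15.0 FPKM with antagomiR-122. Control replicate 1 lay below antagomiR-122 replicates 2 and 4, and the log2 fold change was -0.43 ± 0.15 (SE; limma adjusted p = 0.561). The fructose transporter Slc2a5 had 1.32, 1.67, 1.53 and 2.39 FPKM in controls and 2.43, 1.69, 2.47 and 4.10 FPKM with antagomiR-122, with overlap and a log2 fold change of 0.41 ± 0.19 (SE; limma adjusted p = 0.679). Slc2a9, which carries urate, had 13.2 ± 1.61 and 14.3 ± 2.62 FPKM, and Slc2a1, the widespread glucose transporter, had 1.83 ± 0.556 and 2.23 ± 0.370 FPKM.

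Of the 12 carriers with separate groups, Slc27a4 and Slc4a7 had an unadjusted limma p above 0.05.

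Carriers differed widely in how alike the mice of one group were. The median coefficient of variation within groups was 15.3% for the 147 carriers and 13.1% for all tested genes. Slc15a2, a peptide transporter, was widest at 74.4%, with 0.653, 7.53, 0.782 and 7.84 FPKM in controls and 1.11, 3.78, 3.96 and 3.21 FPKM with antagomiR-122. Control replicates 2 and 4 stood about 10 times above replicates 1 and 3. Slc1a5, a neutral amino acid exchanger, had 4.20 FPKM in antagomiR-122 replicate 1 and 0.914 to 1.92 FPKM in the other 7 libraries. Slc22a28, an organic anion transporter relative, reached 8.50 FPKM in antagomiR-122 replicate 2, against 2.33 to 5.22 FPKM elsewhere.

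**Figure D4:**
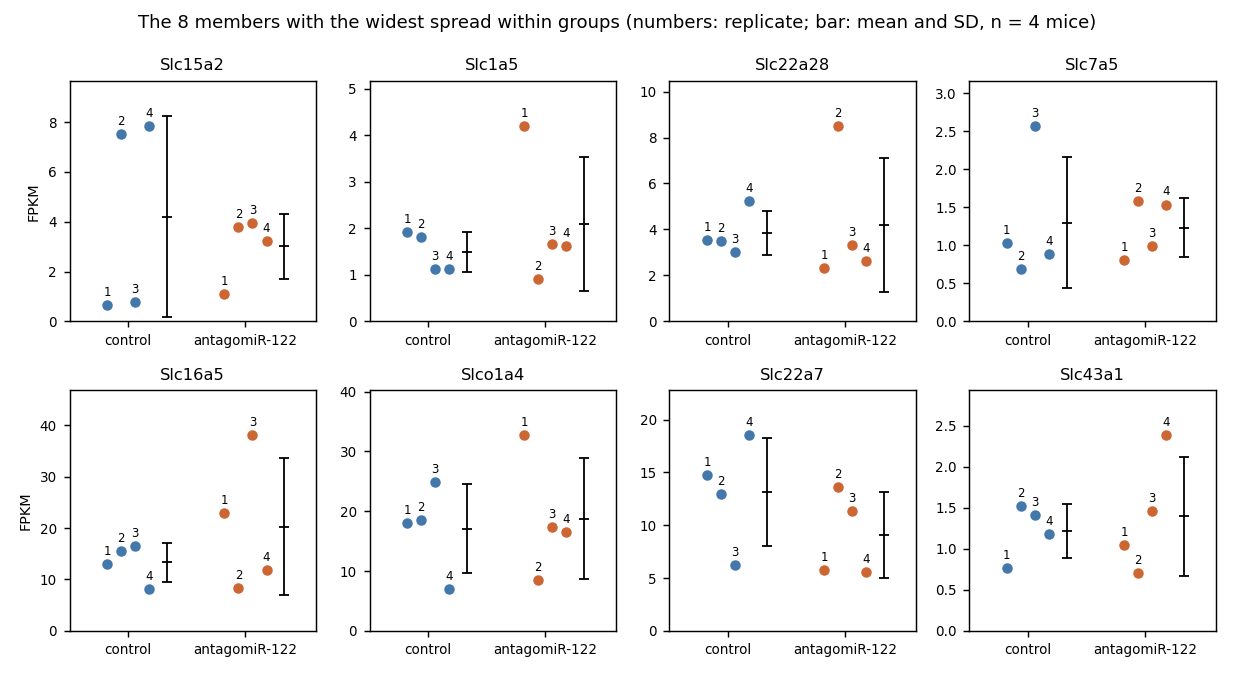
FPKM of the 8 carriers with the widest spread within groups (y axis, from 0), 1 point per mouse numbered by replicate, with the mean and SD of each group of 4. Slc15a2 splits the control mice, with replicates 2 and 4 above 7 FPKM and replicates 1 and 3 under 1 FPKM, while most other panels have 1 high mouse.

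Slc16a5, a monocarboxylate transporter relative, had 38.0 FPKM in antagomiR-122 replicate 3 and 8.17 to 22.9 FPKM in the other libraries. Slco1a4, which takes up digoxin and other organic anions, had 18.0, 18.5, 24.8 and 6.98 FPKM in controls and 32.7, 8.46, 17.4 and 16.5 FPKM with antagomiR-122. The groups overlapped, with control replicate 4 the lowest mouse and antagomiR-122 replicate 1 the highest. At the other end stood the zinc carrier Slc30a9, with a coefficient of variation of 3.72%, and Slc39a9, Slc31a1, Slco1b2 and Slc27a5 at 4.23%, 4.35%, 4.62% and 5.68%.

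AntagomiR-122 replicate 2 was the highest library for a set of organic anion and cation carriers. In that mouse Slco1a1 had 204 FPKM against 115 to 173 FPKM in the others, and Slc22a30 had 90.1 FPKM against 47.0 to 74.4 FPKM. Slc17a2, a phosphate and urate carrier relative, had 79.9 FPKM against 53.4 to 69.6 FPKM, and Slc22a5 had 69.6 FPKM against 28.8 to 53.3 FPKM. Over all 147 carriers it was the lowest library for 28 and the highest for 23. AntagomiR-122 replicate 4 was the highest for 26, and antagomiR-122 replicate 3 the lowest for 33. As shares, replicate 2 was highest for 15.6% of the carriers and 19.5% of all tested genes, and lowest for 19.0% and 14.2%. Replicate 3 was lowest for 22.4% and 20.4%, and replicate 4 highest for 17.7% and 14.9%.

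Other membrane transport genes were set beside the carriers from a list of ATP-driven pumps, water channels and partner proteins of carriers. Of 46 tested, 18 had a positive and 28 a negative log2 fold change with a median of -0.04, and none passed the adjusted limma threshold (smallest adjusted p 0.604). Abcc9, a subunit of ATP-sensitive potassium channels, had 4.35 ± 0.0707 and 3.45 ± 0.567 FPKM with separate groups. Abca8b, a lipid transporter relative, had 13.4 ± 1.29 and 10.8 ± 1.53 FPKM, also with separate groups. Over all tested genes 2.14% had separate groups lower with antagomiR-122. Aqp9, the glycerol channel of hepatocytes, had 129 ± 7.17 and 147 ± 10.2 FPKM with overlap. Aqp4, a water channel, had 1.92 ± 0.947 and 2.93 ± 0.838 FPKM with overlap and was called higher in the authors' deposited table.

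Of 13 transcription factors known to act on transporter genes, 8 had a positive and 5 a negative log2 fold change. Nr1i3, the drug-sensing receptor CAR, was the one with separate groups. Over all tested genes 2.38% had separate groups higher with antagomiR-122. Nr1i3 had 46.1, 42.5, 40.3 and 41.8 FPKM in controls and 54.2, 49.1, 56.0 and 51.5 FPKM with antagomiR-122 (limma adjusted p = 0.378). Hnf4a, a regulator of many hepatocyte carriers, was level at 165 ± 17.0 and 166 ± 19.9 FPKM.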

How the data were processed

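Liver RNA of 8 mice was sequenced, 1 library per mouse, in 2 groups of 4 taken from the sample titles. Per the submitters' processing notes, the tools were TopHat2 2.0.13 and Cufflinks 2.2.1 with Cuffdiff, after bcl2fastq 2.15.0.4 and adapter removal by cutadapt 1.7.1, and the build was GRCm38. Not given in the sources used here are the annotation release, the strand setting and how libraries were scaled. FPKM per mouse were deposited by the authors, with a p-value and a q-value per gene from their own comparison. All columns of mouse values were matched to mice by group and number, and 0 stayed unmatched. Since FPKM hold no counts, a model of counts was not used.

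Of 43630 entries 43629 had values, and 11131 of them, with means from 1 FPKM upwards, were tested together on log2(FPKM + 1). The test was two-sided, in limma 3.58.1 under R 4.3.3 with its trend and robust options, and p was adjusted by Benjamini-Hochberg over all of them. Folds are ratios of mean FPKM, and errors are SD over mice or SE of the fit. The scripts were tested on simulated data. The members, the substrate classes and the other gene lists were chosen with earlier results of these data known. Named in detail are carriers with separate groups, those the authors called, and in each class the highest in level and the smallest limma p in each direction. Other carriers are named by class, and were picked with their values known. Some carriers are counted but not reported here by name. Substrate classes follow the gene family, with some genes moved by their known substrate. Exon overlaps come from GENCODE M21 and promoter windows from RefSeq, GRCm38.p6. Alternatives were other pseudocounts, filters, scalings, limma settings, a replicate block, and leaving out each library.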

Additional observations from a re-analysis of the deposited data

Results flagged for a closer look

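Among 28 named carriers, 56 groups of 4 mice were searched for a mouse far from the other 3 relative to the range of its group, and 3 were found. Chance gives such a mouse in about 1 of 20 groups. Slc39a14, the zinc and manganese importer, had its lowest value with antagomiR-122 at 98.1 FPKM in replicate 2, against 118 to 121 FPKM in the other 3 mice. Slc41a1, the magnesium transporter, had its highest control value at 3.81 FPKM in replicate 2, against 2.28 to 2.54 FPKM in the other 3. Slc10a3 had its highest control value at 2.76 FPKM in replicate 1, against 2.58 to 2.61 FPKM, a small distance that stands out because those 3 controls were nearly equal.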

How the results depend on the processing

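Over 16 alternative settings, 0 of the 147 carriers passed the adjusted limma threshold in any, and the smallest adjusted p was 0.119, for Slc38a2. All 326 log2 fold changes recomputed for 21 named carriers kept their direction and their side of the threshold. Filters, limma settings and the replicate block do not alter a log2 fold change, so there the direction was fixed. In those settings only the side of the threshold could move. For the 12 carriers with separate groups, leaving out 1 library or changing the pseudocount could not have reversed the direction. Of 16 carriers with an unadjusted p under 0.05, a filter at 5 FPKM left 9, and of 12 with separate groups it left 6, since it keeps 96 of the carriers. These were 9.38% and 6.25% of those kept, beside 7.41% and 4.40% of all genes tested there. Leaving out 1 library at a time gave 13 to 26 carriers with an unadjusted p under 0.05 and 14 to 21 with separate groups, which 3 mice reach more easily than 4. The shares of all tested genes moved too, from 5.42% to 8.73% for p and from 6.31% to 9.28% for separate groups, beside 8.84% to 17.7% and 9.52% to 14.3% of the carriers. The cause of the high counts without antagomiR-122 replicate 2 was not tested. Median-ratio scaling, with factors of 0.993 to 1.016, gave 3 higher and 9 lower with separate groups. Of 144 recomputed class medians 2 moved by more than the spread between mice, both of organic anions and cations, to -0.07 each. Dropping the filter, the limma settings and the replicate block could not move a class median.

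The replicate block, with the title's number as a term, gave 14 carriers with an unadjusted p under 0.05 and 0 past the threshold. The 14 are 9.52% of the carriers, beside 5.93% of all tested genes. Separate groups are counted from the values alone, so the block could not change that count of 12. Deviations of same-numbered mice from their group means correlated at 0.128, -0.238, -0.0611 and -0.184. Only 1 of 4 control mice correlated best with its own number. The labels do not say whether a number is shared between groups. Such correlations cannot show whether same-numbered mice were handled together, so pairing is not settled.

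With 4 mice per group the median 95% interval reached 0.280 log2 units to either side. Depth is known only relative to the other libraries, and 74 of the carriers lie under 10 FPKM, where counting error weighs most.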

Other observations

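Some carriers lie next to each other in the genome. Within 100 kb there were 9 neighbouring pairs, and 5 of them had log2 fold changes of the same sign. On chromosome 11, Slc16a11 and Slc16a13 lie 372 bases apart on opposite strands, and both had positive values, 0.27 and 0.33. Slc16a11, a monocarboxylate transporter whose human gene carries diabetes risk variants, had 5.74 ± 0.863 FPKM in controls and 7.20 ± 1.84 FPKM with antagomiR-122, with overlap. On chromosome 13 the vesicle and phosphate carriers Slc17a2, Slc17a3, Slc17a1 and Slc17a4 lie in a row, with log2 fold changes of -0.07, -0.08, -0.05 and -0.10.

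Neighbours with opposite signs were Slc6a13 at -0.13 and Slc6a12 at 0.18, 5343 bases apart on chromosome 6, and Slco1a4 at 0.10 and Slco1a1 at -0.15 on the same chromosome. The copper carriers Slc31a2 and Slc31a1 on chromosome 4 had 0.17 and 0.06. None of these carriers passed the adjusted limma threshold, and no test of neighbouring pairs was run.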
